A study of Mus musculus with 85 samples.

Results

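Kupffer cells, macrophages that reside in the sinusoids of the liver, were compared with the 3 other cell types isolated from the organ to find which transcripts set them apart from their neighbors. The members were the 6 Kupffer cell RNA-seq libraries from untreated mice, of 85 libraries in the series. They were compared with 12 libraries of liver sinusoidal endothelial cells (LSECs), 11 of hepatic stellate cells and 7 of hepatocytes. A gene was called Kupffer-enriched where it was higher in Kupffer cells than in each of the 3 other cell types, and Kupffer-low where it was lower than in each.

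The mice were of the inbred strains C57BL/6J, A/J and BALB/cJ, with 2 Kupffer cell libraries and 4 LSEC libraries for each. C57BL/6J gave 3 libraries of stellate cells and 3 of hepatocytes, and A/J and BALB/cJ each gave 4 of stellate cells and 2 of hepatocytes. The mice of these groups were male, 8 to 12 weeks old and on standard chow. None was treated, and all livers were digested with flavopiridol, which blocks transcription. Kupffer cells were sorted as CD45-positive, F4/80-high, CD11b-intermediate and CD146-negative cells with little ultraviolet autofluorescence, and LSECs as CD45-negative and CD146-positive. The genes of these antigens (Ptprc, Adgre1, Itgam and Mcam) therefore carry no finding between those groups. Stellate cells were sorted on the ultraviolet autofluorescence of their vitamin A stores, and hepatocytes were purified by density without a sort. The labels do not say that each library came from its own mouse, so the p-values measure the spread between libraries.

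Kupffer cells clear bacteria, immune complexes and aging red cells from portal blood. Scavenger receptors, complement receptors and lysosomes serve this uptake, and the iron of heme is recovered and exported. Their identity is known to depend on PU.1 (Spi1) with LXRα (Nr1h3), ID3 and SPIC, and to be maintained by signals of the niche, such as CSF1, Notch ligands and BMPs from stellate and endothelial cells.

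The 6 Kupffer libraries held 9090404 to 13440812 counts and the 36 libraries together 6377394 to 21445259. Levels are given as TPM, a transcript level scaled for gene length and for the depth of the library. Differences are log2 values fitted by edgeR with strain as a covariate, with their standard errors. A call needed an adjusted p under 0.05 and a log2 difference over 1. Of 23608 genes, 10504 passed the filter on low counts and averaged over 8 TPM in at least 1 of the 4 cell types. In bulk RNA, fewer cells of a type and less RNA per cell cannot be told apart.

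The 5 chosen markers, Clec4f, Timd4, Vsig4, Cd5l and Marco, were each called higher in Kupffer cells than in LSECs (17.3% of tested genes were), stellate cells (14.6%) and hepatocytes (28.9%). Since the label rests on these genes, the 250 bases before their start sites are shown, 5′ to 3′ on the strand of the gene, from RefSeq on GRCm38.p6 (mm10). On that build they lie at chr6:83656117-83656366 (minus strand), chr11:46810549-46810798 (plus strand), chrX:96293439-96293688 (minus strand), chr3:87357631-87357880 (plus strand) and chr1:120505025-120505274 (minus strand). The table's start site for Timd4 lies a few bases inside the annotated gene, and the other 4 stretches end where the gene begins. Capitals mark 5 words read on either strand: GAGGAA (PU.1), TGCTGA (MAF), CACGTG (the E-box of MiT-TFE factors), TGTGGT (RUNX) and AGGTCA (nuclear receptors).
Clec4f: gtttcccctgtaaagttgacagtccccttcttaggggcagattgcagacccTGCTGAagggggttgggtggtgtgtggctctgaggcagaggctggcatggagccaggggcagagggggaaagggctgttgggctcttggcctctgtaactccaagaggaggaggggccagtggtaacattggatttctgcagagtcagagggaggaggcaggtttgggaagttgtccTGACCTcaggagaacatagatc
Timd4: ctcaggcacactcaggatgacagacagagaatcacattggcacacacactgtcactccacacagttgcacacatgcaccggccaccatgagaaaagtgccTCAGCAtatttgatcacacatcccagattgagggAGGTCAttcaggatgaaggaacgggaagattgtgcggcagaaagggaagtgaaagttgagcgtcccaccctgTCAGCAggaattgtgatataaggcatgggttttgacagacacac
Vsig4: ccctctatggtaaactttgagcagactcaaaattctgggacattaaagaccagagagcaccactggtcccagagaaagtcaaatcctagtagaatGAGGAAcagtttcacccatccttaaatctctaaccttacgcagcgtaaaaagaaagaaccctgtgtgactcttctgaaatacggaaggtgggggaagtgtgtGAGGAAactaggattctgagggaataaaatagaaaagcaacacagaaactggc
Cd5l: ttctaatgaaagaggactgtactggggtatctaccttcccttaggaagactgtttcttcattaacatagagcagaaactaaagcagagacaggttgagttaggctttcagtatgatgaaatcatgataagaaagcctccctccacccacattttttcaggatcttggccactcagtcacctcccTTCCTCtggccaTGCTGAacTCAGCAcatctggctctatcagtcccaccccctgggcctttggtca
Marco: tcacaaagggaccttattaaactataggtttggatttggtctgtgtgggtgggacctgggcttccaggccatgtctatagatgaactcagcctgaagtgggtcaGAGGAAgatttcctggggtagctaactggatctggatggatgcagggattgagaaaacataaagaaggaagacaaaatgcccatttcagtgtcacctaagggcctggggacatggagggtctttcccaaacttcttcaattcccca
The PU.1 word stood at −155 and −53 in Vsig4, at −66 in Cd5l and at −146 in Marco, counting the first base of the match with the start site at 0. The MAF word stood at −199 in Clec4f, at −150 and −44 in Timd4 and at −54 and −46 in Cd5l. The nuclear receptor word stood at −22 in Clec4f and at −116 in Timd4. No 2 of these matches overlapped. Over 27025 promoters, 1 per gene and 300 bases each with 50 after the start site, the PU.1 word was found in 28.3%, the MAF word in 19.1%, the nuclear receptor word in 16%, the RUNX word in 16.9% and the E-box in 7.24%. A match is a run of letters, not a bound site. Promoters were held for 812 of 1026 Kupffer-enriched genes (79.1%), under the 80% needed, so a comparison of word shares over that set is void.

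Clec4f, a galactose-binding lectin of mouse Kupffer cells (chromosome 6, 83644542 to 83656116), had 5275, 6043 and 7568 TPM as the lowest, median and highest of the 6 Kupffer libraries. It had 2.37, 8.01 and 70.2 TPM in LSECs, 87.1, 494 and 2469 TPM in stellate cells and 5.84, 7.66 and 12.4 TPM in hepatocytes. The lowest Kupffer library was above the highest of the 30 others. The fitted difference was 9.15 ± 0.62 from LSECs, 3.88 ± 0.54 from stellate cells and 8.48 ± 0.77 from hepatocytes (largest edgeR adjusted p = 1.1e-07).

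Timd4, the phosphatidylserine receptor TIM4 (chromosome 11, 46810786 to 46844333), had 410.1, 497 and 718 TPM in Kupffer cells, against medians of 0.855 TPM in LSECs, 54.5 TPM in stellate cells and 1.06 TPM in hepatocytes. Vsig4, a complement receptor of the immunoglobulin family (chromosome X, 96247201 to 96293438), had 2322, 2661 and 2995 TPM in Kupffer cells, against medians of 4.74 TPM in LSECs, 299 TPM in stellate cells and 5.27 TPM in hepatocytes. Cd5l, a secreted scavenger protein (chromosome 3, 87357881 to 87371074), had 3263, 4229 and 4799.9 TPM in Kupffer cells, against medians of 6.58 TPM in LSECs, 449.9 TPM in stellate cells and 10.1 TPM in hepatocytes. For these 3 genes every Kupffer library was above every other library, and stellate cells were the nearest, at 3.79, 3.77 and 3.79 on the log2 scale (largest edgeR adjusted p = 2.7e-07).

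Marco, a scavenger receptor for bacteria (chromosome 1, 120474538 to 120505024), varied most among the markers. It had 263 and 221 TPM in A/J, 53.8 and 81.5 TPM in BALB/cJ and 255 and 372 TPM in C57BL/6J Kupffer cells, against medians of 0.298 TPM in LSECs, 27.9 TPM in stellate cells and 0.817 TPM in hepatocytes. Its groups overlapped, since a stellate library from A/J reached 165 TPM, above both BALB/cJ Kupffer libraries. The difference from stellate cells was 3.47 ± 0.45 (largest edgeR adjusted p = 2e-08).

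**Figure D1:**
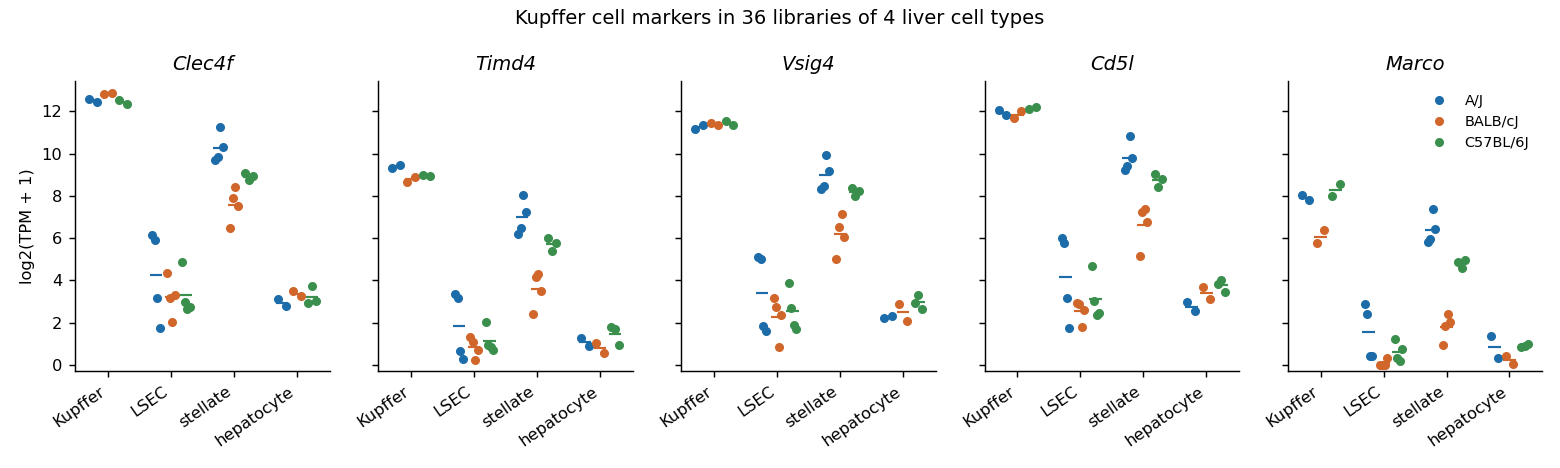
Levels of the 5 markers as log2(TPM + 1) in the 36 libraries by cell type, with each point a library colored by strain and each line a strain's mean. Kupffer libraries are highest for each marker except Marco in BALB/cJ, and stellate libraries come next, highest in A/J.

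The stellate libraries held the most Kupffer marker RNA of the other cell types, and the amount differed by strain. With each marker as a percentage of its mean over the Kupffer libraries, the median of the 5 was 13.4 to 44.5% in A/J stellate libraries, 8.41 to 12.5% in those of C57BL/6J and 0.836 to 4.01% in those of BALB/cJ. It was 0.032 to 1.54% in LSECs, which overlapped the BALB/cJ stellate range, and 0.119 to 0.373% in hepatocytes. The authors set an upper bound on minor contamination of the stellate libraries with LSECs and Kupffer cells, read from RNA-seq signal at marker loci. All A/J stellate values here, and the highest of C57BL/6J, lay above that bound. How far contamination sets these values was not tested. In the A/J stellate library with the most, Clec4f, Timd4, Vsig4 and Cd5l stood at 39.1, 49, 36.5 and 44.5% and Marco at 79.2%. The difference of Clec4f from its nearest cell type was 2.26 within A/J, 3.72 within C57BL/6J and 5.32 within BALB/cJ. Without the A/J stellate libraries 1062 genes were Kupffer-enriched, and with stellate cells left out altogether, an alternative chosen after the values were seen, 1247 were. The 2 counts stand against 1026 with all libraries.

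**Figure D2:**
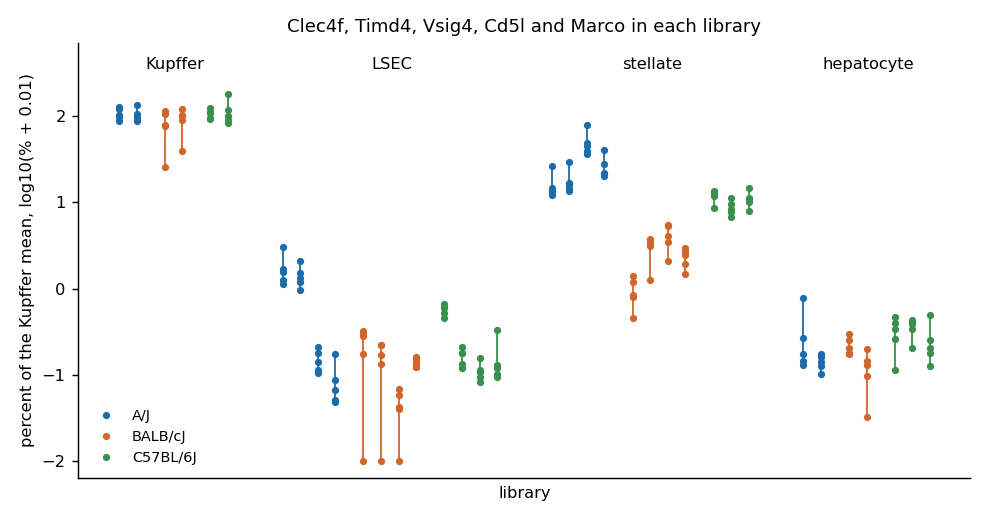
Each of the 5 markers as a percentage of its mean over the 6 Kupffer libraries, drawn as log10(% + 0.01), for each library along the x axis, with a line from its lowest to its highest marker. Stellate libraries lie below Kupffer libraries, except that A/J stellate ranges overlap those of the BALB/cJ Kupffer libraries, where Marco is low. The A/J ones are highest among the stellate libraries, and the BALB/cJ ones reach down to the level of the highest LSEC libraries.

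Against LSECs, 1819 of 10504 genes were higher and 2471 lower (23.5%) in Kupffer cells. Against stellate cells, 1533 were higher and 2291 lower (21.8%). Against hepatocytes, 3037 were higher and 3145 lower (29.9%), but with limma on log2(TPM + 1) the hepatocyte split was 4947 higher and 1690 lower. On that scale the median difference over all tested genes was 0.89 from hepatocytes, −0.34 from LSECs and −0.19 from stellate cells, while on the edgeR scale it was within 0.02 of 0 for each. The 10 highest genes of a library took 10.6 to 14.3% of its TPM in Kupffer cells and 24.5 to 32.2% in hepatocytes. The 3 comparisons share the Kupffer libraries.

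In all, 1026 genes were Kupffer-enriched (9.77% of those tested) and 1112 Kupffer-low (10.6%). The enriched genes took 38.7 to 41.6% of the TPM of a Kupffer library, 4.81 to 5.39% in LSECs, 5.23 to 20.4% in stellate cells and 1.06 to 1.2% in hepatocytes. Their median level was 61.9 TPM in Kupffer cells, 5.83 TPM in LSECs, 15.4 TPM in stellate cells and 0.756 TPM in hepatocytes. The nearest cell type was the stellate cell for 812 genes (79.1%), the LSEC for 116 and the hepatocyte for 98. The stellate level stood at a median of 32% of the Kupffer level in A/J, 22.4% in C57BL/6J and 15.4% in BALB/cJ. How far the Kupffer marker RNA in the stellate libraries sets these stellate levels, and with them the nearest cell type, was not tested. Every Kupffer library was above all 30 others for 883 of the enriched genes, a pattern that 12.4% of tested genes showed and that the calling rule favors. Every Kupffer library was below all 30 others for 560 of the low genes, against 6.77% of tested genes.

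**Figure D3:**
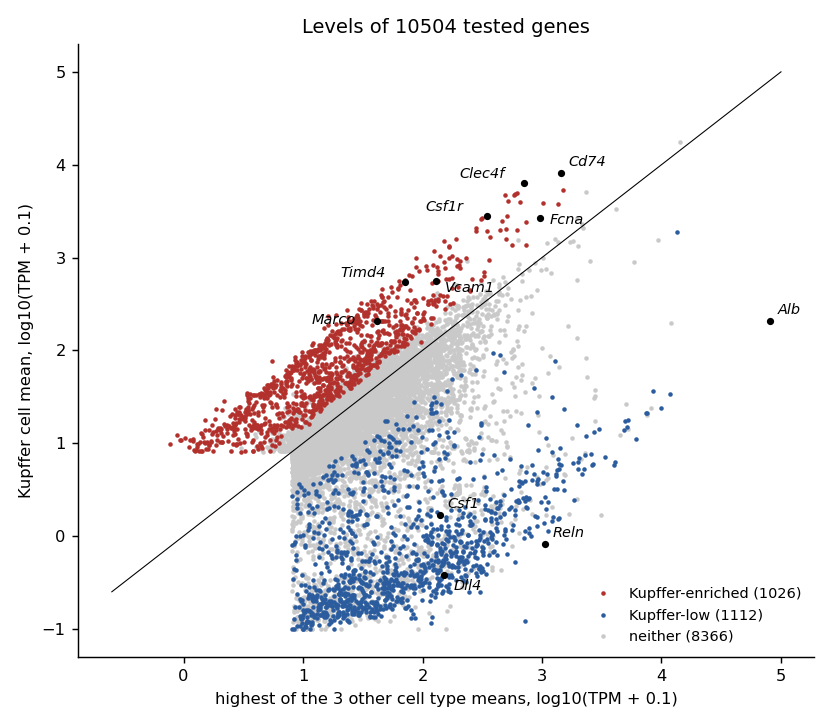
Mean TPM of each tested gene in Kupffer cells against the highest of its means in LSECs, stellate cells and hepatocytes, drawn as log10(TPM + 0.1) with a line of equal levels. The 1026 Kupffer-enriched genes lie on the Kupffer side of the line and the 1112 Kupffer-low genes on the other.

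Of 20 surface and secreted identity genes, all tested, 17 were Kupffer-enriched and none Kupffer-low. The median over the list of the smallest of the 3 differences was 3.49, against −0.69 over all genes tested. Cd163, the scavenger receptor for hemoglobin bound to haptoglobin, had 942, 1171 and 1408 TPM in Kupffer cells, against medians of 1.54 TPM in LSECs, 102 TPM in stellate cells and 1.3 TPM in hepatocytes (largest edgeR adjusted p = 8.4e-08). Cd207, the lectin langerin, whose gene lies with Clec4f within 33.3 kb on chromosome 6, was uneven between strains. It had 34.4 and 78.1 TPM in A/J, 236 and 301 TPM in BALB/cJ and 430.4 and 318 TPM in C57BL/6J Kupffer cells, against at most 36.3 TPM in a stellate library. Cxcl13, a chemokine for B cells, had 137 and 145 TPM in A/J, 36.1 and 62.6 TPM in BALB/cJ and 383 and 488 TPM in C57BL/6J Kupffer cells. Pcolce2, an enhancer of procollagen processing, was even, at 109 to 125 TPM over the Kupffer libraries.

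Clec1b, Cdh5 and Lrp1 were the members that were not enriched. Clec1b, the podoplanin receptor CLEC-2, had a median of 269.6 TPM in Kupffer cells and 199 TPM in LSECs (0.94 ± 0.18, under the fold limit). Cdh5, VE-cadherin, had 383 TPM in Kupffer cells and 801 TPM in LSECs (−0.76 ± 0.21). Lrp1, an endocytic receptor of many plasma ligands, had 499 TPM in Kupffer cells and 446 TPM in stellate cells (0.45 ± 0.32).

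Some enriched members had a substantial level in a neighbor. Fcna, the lectin ficolin A, had 1703 to 3842 TPM in Kupffer cells and 428 to 1656 TPM in stellate cells (1.63 ± 0.35, largest edgeR adjusted p = 8.8e-05). In BALB/cJ stellate cells Fcna stood at 28.3% of its Kupffer level, where Clec4f stood at 2.87%. Hpgd, which inactivates prostaglandins, had a median of 904 TPM in Kupffer cells and 336 TPM in LSECs (1.73 ± 0.24). C6, a component of the membrane attack complex, had 717 TPM in Kupffer cells and 48.3 TPM in hepatocytes (2.84 ± 0.49). By TPM, stellate cells held more of it than hepatocytes, at 40.65 to 311 TPM. Its stellate level was 26.1% of the Kupffer level in A/J, 13.5% in C57BL/6J and 7.5% in BALB/cJ. The hepatocyte level was 5.29, 8.4 and 5.45% of it in the same strains.

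Of 18 pan-macrophage genes, 3 of them the sort antigens, 17 were enriched, with a median smallest difference of 3.62. Lyz2, lysozyme, had 3233, 4614 and 6208 TPM in Kupffer cells, against medians of 12.3 TPM in LSECs, 465 TPM in stellate cells and 15.1 TPM in hepatocytes. Mertk, a receptor for apoptotic cells, was the exception, at 393 TPM in Kupffer cells and 274 TPM in LSECs (0.93 ± 0.14, under the fold limit).

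Of 25 lineage transcription factors, 24 were tested and 13 were Kupffer-enriched, with a median smallest difference of 1.16. Spi1, which encodes PU.1, had 432, 518 and 550.0 TPM in Kupffer cells, against medians of 0.996 TPM in LSECs, 51.6 TPM in stellate cells and 1.24 TPM in hepatocytes. It was 3.58 ± 0.44 above stellate cells (largest edgeR adjusted p = 8.2e-09). Spic, a factor of iron-recycling macrophages, had 71.3 to 132 TPM in Kupffer cells and a median of 10.6 TPM in stellate cells. Irf5, Runx1, Batf3 and Mitf, regulators of myeloid cells, were 3.46, 3.08, 3.02 and 2.50 above stellate cells.

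For others the nearest cell type was the hepatocyte or the LSEC. Nr1h3, LXRα, had 191, 239.9 and 404 TPM in Kupffer cells and a median of 45.9 TPM in hepatocytes (1.44 ± 0.35, edgeR adjusted p = 0.0003). Tfec, of the MiT-TFE family, had 90.4 TPM in Kupffer cells and 43.5 TPM in LSECs (1.38 ± 0.23). Its relatives Tfeb and Tfe3, which drive lysosomal genes, were 1.26 ± 0.12 above hepatocytes and 1.05 ± 0.08 above LSECs. With limma on log2(TPM + 1), the smallest differences of Tfeb (0.91) and Tfe3 (0.69) fell short of the fold limit. By TPM the LSEC was nearer than the hepatocyte for Tfeb, at 12.7 to 21.4 TPM in LSECs and 5.2 to 8.1 TPM in hepatocytes.

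Several factors known for Kupffer cell identity were not higher than in each neighbor. Id3, an inhibitor of E proteins, had a median of 109.7 TPM in Kupffer cells, against 337 TPM in LSECs and 412 TPM in stellate cells. It was called lower than in both (−1.25 ± 0.19 and −1.53 ± 0.20, edgeR adjusted p = 6.2e-07 and 2.4e-08). Maf had 442 TPM in Kupffer cells, 919.9 TPM in LSECs, 398 TPM in stellate cells and 7.37 TPM in hepatocytes, and passed both limits against hepatocytes alone. Zeb2, a repressor that maintains tissue macrophages, had 118 TPM in Kupffer cells and 108 TPM in stellate cells (0.25 ± 0.14). Cebpa, a factor of myeloid cells and hepatocytes, had 223 TPM in Kupffer cells and 328 TPM in hepatocytes, and was called higher than in LSECs and stellate cells and lower than in hepatocytes.

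**Figure D4:**
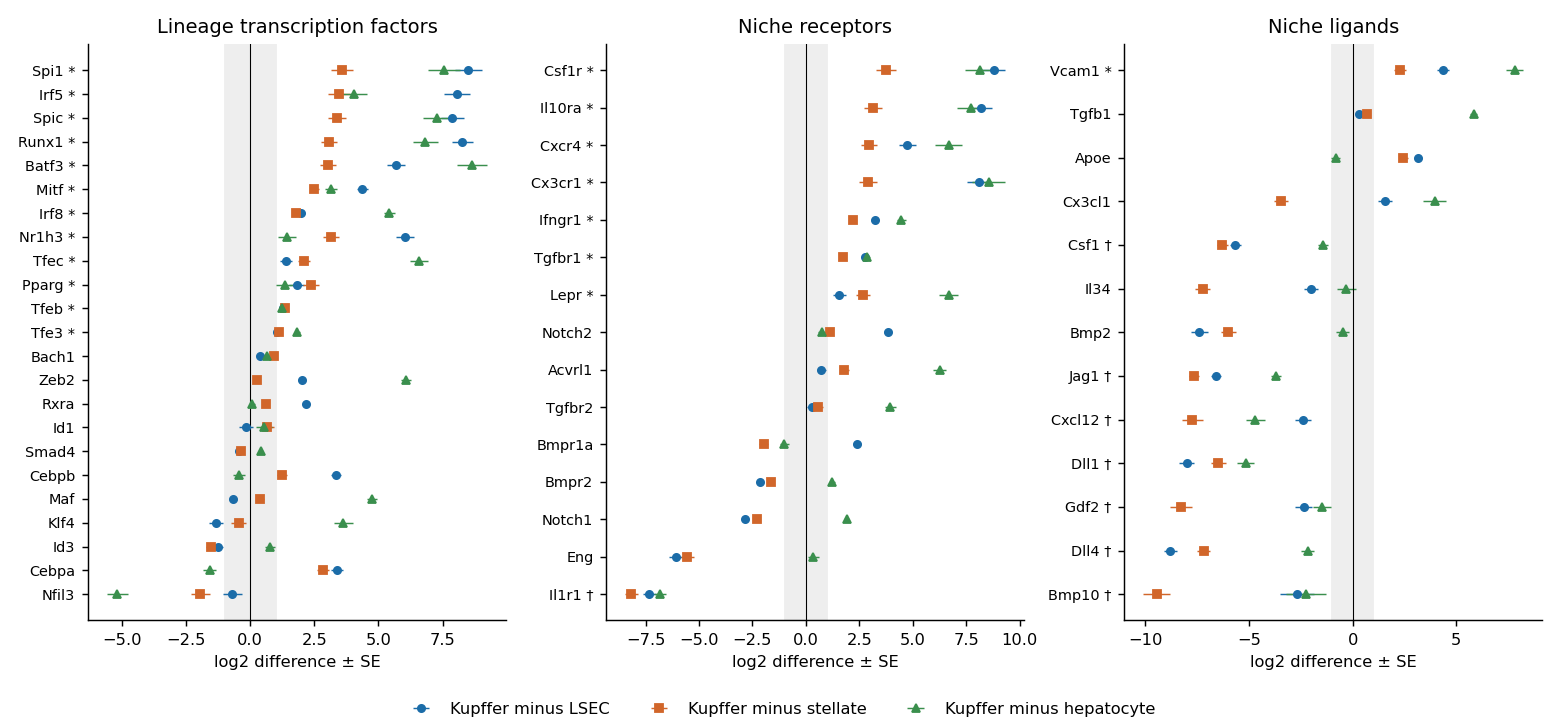
Log2 differences of Kupffer cells from LSECs, stellate cells and hepatocytes with standard errors, for tested lineage transcription factors, niche receptors and niche ligands, with a gray band for the fold limit of 1, asterisks for Kupffer-enriched and daggers for Kupffer-low genes. The receptors lie mostly right of 0 and the ligands mostly left of it.

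Receptors for niche signals were divided. Of 15, all tested, 7 were Kupffer-enriched and 1 Kupffer-low, with a median smallest difference of 0.74. Csf1r, the receptor of CSF1 and IL-34, had 2499.8, 2838 and 3154 TPM in Kupffer cells, against medians of 5.94 TPM in LSECs, 287 TPM in stellate cells and 4.68 TPM in hepatocytes. Its Kupffer libraries were all above the others, and it was 3.75 ± 0.48 above stellate cells (largest edgeR adjusted p = 2e-08). Il10ra, Ifngr1 and Tgfbr1, receptor chains for IL-10, interferon-γ and TGF-β, were 3.15, 2.19 and 1.75 above stellate cells. Il1r1, the IL-1 receptor, was Kupffer-low, at 0.043 to 0.418 TPM in Kupffer cells, against medians of 55.7 TPM in LSECs, 90.7 TPM in stellate cells and 11.4 TPM in hepatocytes.

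Receptors of BMPs and Notch ligands were shared with other cells. Acvrl1, the BMP9 and BMP10 receptor ALK1, had a median of 63.9 TPM in Kupffer cells and 57.7 TPM in LSECs (0.71 ± 0.21, under the fold limit). Eng, its co-receptor endoglin, had 33.1 TPM in Kupffer cells and 2622 TPM in LSECs, and was called lower than in LSECs and stellate cells. Notch2 was called higher than in LSECs and stellate cells and was 0.74 ± 0.19 above hepatocytes. Bmpr1a was called higher than in LSECs (2.38 ± 0.19) and lower than in stellate cells (−1.98 ± 0.21) and hepatocytes (−1.01 ± 0.22).

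Of 16 niche ligands, 13 were tested, with 1 Kupffer-enriched and 7 Kupffer-low, and a median smallest difference of −7.39. Csf1 had 0.63 to 3.32 TPM in Kupffer cells, against medians of 101 TPM in LSECs, 133 TPM in stellate cells and 1.87 TPM in hepatocytes. Dll4, a Notch ligand, had 0.037 to 0.494 TPM in Kupffer cells, against medians of 149 TPM in LSECs, 47.1 TPM in stellate cells and 0.534 TPM in hepatocytes. Gdf2, which encodes BMP9, had a median of 1.46 TPM in Kupffer cells and 588 TPM in stellate cells. Its hepatocyte libraries, at 1.09 to 4.17 TPM, overlapped its Kupffer libraries, at 1.04 to 2.34 TPM. Its difference from the nearest cell type was −1.47 (largest edgeR adjusted p = 0.002), and −0.29 with limma on log2(TPM + 1). With limma on log2(TPM + 1) 6 of the 7 low calls were lost, all but that of Cxcl12, which had 3.83 TPM in Kupffer cells and 902 TPM in stellate cells.

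Bmp10, another stellate BMP ligand, had a median of 0.0985 TPM in Kupffer cells and 123 TPM in stellate cells. Its low call (largest edgeR adjusted p = 0.032) rested on the hepatocyte comparison and was lost without BALB/cJ Kupffer replicate 1 (0.072) or 2 (0.061), C57BL/6J Kupffer replicate 1 (0.051) or C57BL/6J hepatocyte replicate 2 (0.08). Il34, the other ligand of CSF1R, was called lower than in LSECs and stellate cells, at 0.547 TPM in Kupffer cells and 91.7 TPM in stellate cells.

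Vcam1, a vascular adhesion molecule, was the enriched member of the ligand list, with 339, 566 and 723 TPM in Kupffer cells, against medians of 32.1 TPM in LSECs, 125 TPM in stellate cells and 1.04 TPM in hepatocytes. Every Kupffer library was above the others, and Vcam1 was 2.28 ± 0.29 above stellate cells (largest edgeR adjusted p = 1.4e-08). Apoe, the apolipoprotein, had 11989, 16574 and 22512 TPM in Kupffer cells and a median of 13208 TPM in hepatocytes. It was called higher than in LSECs and stellate cells and was −0.82 ± 0.23 against hepatocytes, under the fold limit. The TPM medians of Kupffer cells and hepatocytes lie in the other direction, so the direction between these 2 cell types depended on the scale.

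All 3 chains of complement C1q were Kupffer-enriched. C1qa, C1qb and C1qc had medians of 4840.4, 4936 and 5032 TPM in Kupffer cells, against 439, 470.1 and 491 TPM in stellate cells. In LSECs and hepatocytes the medians were between 10.2 and 12.4 TPM. The genes lie within 18.7 kb on chromosome 4, and their differences from stellate cells were 3.66 to 3.73 (largest edgeR adjusted p = 7.7e-08).

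Heme and iron genes were divided between Kupffer cells and hepatocytes. Of 16, 8 were Kupffer-enriched and 3 Kupffer-low, with a median smallest difference of 0.58. Slc40a1, the iron exporter ferroportin, had 2259, 2675 and 3474 TPM in Kupffer cells, against medians of 164 TPM in LSECs, 482 TPM in stellate cells and 44.7 TPM in hepatocytes. Hmox1, heme oxygenase 1, had 1497, 1898 and 2473 TPM in Kupffer cells, against medians of 50.2 TPM in LSECs, 195 TPM in stellate cells and 9.65 TPM in hepatocytes. For both, every Kupffer library was above the others. Slc11a1, the phagosomal metal transporter NRAMP1, was 3.58 ± 0.47 above stellate cells. The Kupffer-low members were Hp and Hpx, which bind hemoglobin and heme in plasma, and Tfr2, a hepatocyte sensor of transferrin. Hp had 13.2 TPM in Kupffer cells and 1766 TPM in hepatocytes. Its difference from stellate cells (−1.34 ± 0.55, edgeR adjusted p = 0.028) missed the threshold without the A/J stellate libraries (0.059), and without A/J Kupffer replicate 1, BALB/cJ Kupffer replicate 1 or 2, C57BL/6J Kupffer replicate 1, A/J stellate replicate 2 or C57BL/6J stellate replicate 2 (0.053 to 0.072).

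Of 6 Fcγ receptor genes, 4 were Kupffer-enriched, with a median smallest difference of 3.17. Fcgr4, an activating receptor for IgG, had 223, 464 and 660.1 TPM in Kupffer cells, against medians of 0.785 TPM in LSECs, 35.2 TPM in stellate cells and 0.517 TPM in hepatocytes. Fcgr1, Fcgr3 and the signaling chain Fcer1g were 3.70, 3.71 and 2.63 above stellate cells. Fcgr2b, the inhibitory receptor, was called lower than in LSECs and stellate cells, at 48 TPM in Kupffer cells and 2817 TPM in LSECs. Fcgrt, the neonatal Fc receptor, had 997 TPM in Kupffer cells and 885 TPM in LSECs (0.31 ± 0.13).

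Of 18 tested genes of bacterial and LPS sensing, 12 were Kupffer-enriched, with a median smallest difference of 2.78. Tlr7, Tlr8 and Tlr13, endosomal receptors for RNA, had medians of 85.3, 112 and 103 TPM in Kupffer cells and at most 37.2, 45.9 and 37 TPM in a stellate library. Of 18 tested efferocytosis and phagocytosis genes, 7 were enriched and 2 low, with a median of 0.78. Trem2, a receptor for lipids, had 15.8 and 17.8 TPM in A/J, 51.7 and 63.1 TPM in BALB/cJ and 21.9 and 27.8 TPM in C57BL/6J Kupffer cells, against at most 5.49 TPM in a stellate library. Axl, a receptor for GAS6 on dying cells, had 669, 746 and 924 TPM in Kupffer cells, against medians of 9.1 TPM in LSECs, 136 TPM in stellate cells and 1.21 TPM in hepatocytes. Mfge8, a bridging protein, was low, at 0.826 to 1.8 TPM in Kupffer cells and a median of 252 TPM in stellate cells, a call lost with limma on log2(TPM + 1). Itgb3, integrin β3, was called low (−1.37 ± 0.49 against hepatocytes), but stood at 0.03 with limma on log2(TPM + 1), where its direction flips, and lost the call without BALB/cJ hepatocyte replicate 1 (edgeR adjusted p = 0.054).

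All 9 tested genes of MHC class II presentation were Kupffer-enriched, with a median smallest difference of 2.95, and they varied widely among Kupffer libraries. Cd74, the invariant chain, had 16957 and 8919 TPM in A/J, 3029 and 2687 TPM in BALB/cJ and 6787 and 10725 TPM in C57BL/6J Kupffer cells. H2-Ab1, a class II chain, had 4577 and 1838 TPM in A/J, 353 and 391 TPM in BALB/cJ and 1522 and 2801 TPM in C57BL/6J Kupffer cells. The BALB/cJ libraries were the lowest for both. The Kupffer and stellate ranges of Cd74 overlapped, since a stellate library reached 7109.5 TPM, and Cd74 was 3.28 ± 0.51 above stellate cells (edgeR adjusted p = 7.4e-07). Dendritic cells also express these genes. Their 7 markers summed to 28.6 to 58.8 TPM in Kupffer cells, 154 to 256 TPM in LSECs and 49.9 to 128 TPM in stellate cells. Of them, Flt3 and Cd209a were at 0 in all Kupffer libraries and Clec9a had a median of 47.2 TPM. The part of dendritic cell RNA in these values was not tested.

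Of 24 tested lysosomal genes, 16 were Kupffer-enriched and none Kupffer-low, with a median smallest difference of 1.67. The cathepsin genes Ctss, Ctsc and Ctsb were 3.69, 3.46 and 2.87 above stellate cells. Psap, the precursor of the saposins, was broadly expressed, with 3714 TPM in Kupffer cells, against medians of 1032 TPM in LSECs, 1175 TPM in stellate cells and 208 TPM in hepatocytes. Of 12 LXR target genes, 7 were enriched, with a median smallest difference of 1.21. Pltp, the phospholipid transfer protein, Smpdl3a, a phosphodiesterase, and Arl4c, a small GTPase, were 2.46, 2.66 and 2.36 above stellate cells. Mylip, which degrades the LDL receptor, was called lower than in LSECs and stellate cells (−2.21 ± 0.17 and −1.32 ± 0.16).

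Most tested members of 3 receptor families were enriched. Of 7 tested Cd300 genes, 6 were Kupffer-enriched, within 246 kb on chromosome 11. The endothelial member Cd300lg was Kupffer-low, at 0.51 to 2.17 TPM in Kupffer cells and a median of 1006 TPM in LSECs, a call lost with limma on log2(TPM + 1). Cd300ld, an activating member, had 23.9 and 33 TPM in A/J, 236 and 199.8 TPM in BALB/cJ and 568 and 555 TPM in C57BL/6J Kupffer cells. Of 7 tested Ms4a genes, 6 were enriched, within 537 kb on chromosome 19. Of 8 tested Clec4 lectins, 7 were enriched, spread over chromosome 6, and Clec4g, a lectin of LSECs, was Kupffer-low (6.84 TPM in Kupffer cells and 4142 TPM in LSECs). These families hold near-identical copies, among which the division of reads is uncertain. Over all enriched genes with a position, 303 of 1016 (29.8%) had another enriched gene within 100 kb, against 18% of all tested genes.

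Cd300ld3 had the largest of the smallest differences, 4.11 ± 0.38 above stellate cells, with 7.79 to 12.4 TPM in Kupffer cells and 0 in all LSEC libraries. Kcnj16, a potassium channel subunit, had 64 to 97.6 TPM in Kupffer cells and was 3.92 ± 0.37 above stellate cells. Mefv, which encodes pyrin, and Mmp13, a collagenase, met the rule on part of the libraries. Mefv had 0.036 and 0.124 TPM in A/J, 6.48 and 6.98 TPM in BALB/cJ and 23.8 and 35.1 TPM in C57BL/6J Kupffer cells. Mmp13 had 14.8 and 37.2 TPM in A/J, 38.2 and 43.6 TPM in BALB/cJ and 2.67 and 1.62 TPM in C57BL/6J Kupffer cells. Among enriched genes with the highest levels, Actb and Tmsb4x, of the actin cytoskeleton, were 2.03 ± 0.14 and 2.16 ± 0.17 above stellate cells. At the fold limit, Bco2, Taf6l and Zcchc2 lay just inside it and Casp1, Rab11fip5 and R74862 just outside, each at 1.00 after rounding. Each call just inside it was lost with some single libraries left out.

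Genes of the other cell types were low in Kupffer libraries. LSEC markers summed to 247 to 427 TPM in Kupffer cells, 15133 to 20192 TPM in LSECs and 2855 to 8098 TPM in stellate cells. The authors report minor contamination of the stellate libraries with LSECs and Kupffer cells. How far it sets the stellate levels of LSEC genes was not tested. Of 13 LSEC markers, 7 were Kupffer-low, counting the sort antigen gene Mcam. Among the 6 others were Kdr and Flt4, VEGF receptors. Stellate markers summed to 186 to 386 TPM in Kupffer cells and 16484 to 35126 TPM in stellate cells, with 5 of 13 Kupffer-low, of which 1, Reln, a secreted matrix protein, kept the call with limma on log2(TPM + 1). Hepatocyte markers summed to 139 to 519 TPM in Kupffer cells and 99949 to 154274 TPM in hepatocytes, with 11 of 13 Kupffer-low, a count that was 6 without BALB/cJ Kupffer replicate 1 and 9 without the A/J stellate libraries. Alb, albumin, had 77.5, 197 and 366 TPM in Kupffer cells, against medians of 989 TPM in LSECs, 607 TPM in stellate cells and 82183 TPM in hepatocytes. Its difference from stellate cells was −1.55 ± 0.52 (edgeR adjusted p = 0.0085), at levels far under those of hepatocytes.

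Markers of other blood cells were at uneven levels. T and NK cell markers summed to 2.63 to 31.7 TPM in Kupffer cells, and none of the 8 in the tables passed the filter. B cell markers summed to 8.67 to 26.6 TPM, neutrophil markers to 87.6 to 124 TPM and monocyte markers to 11.4 to 183 TPM in Kupffer cells, beside 119 to 380.1 TPM for the last in stellate cells. Cd79b, a chain of the B cell receptor, was Kupffer-enriched at 8.12 to 24.2 TPM, while Cd79a and Pax5 had medians of 0.294 and 0.224 TPM in Kupffer cells. Csf3r, the G-CSF receptor, was enriched at 83 to 118 TPM, while the 6 other neutrophil markers did not pass the filter. Their medians in Kupffer cells were 0 for Ly6g, Retnlg and Cxcr2, 0.113 TPM for S100a9, 0.957 TPM for Mmp8 and 2.04 TPM for S100a8. Erythroid and platelet markers summed to 72.1 to 797 TPM in Kupffer cells, 9.52 to 65.8 TPM in LSECs, 17.7 to 265 TPM in stellate cells and 62.1 to 117 TPM in hepatocytes. Of 6 tested, 4 were enriched, and 2 were without A/J Kupffer replicate 1. Pf4, a platelet chemokine, was enriched at 22.5 to 192 TPM in Kupffer cells. Hbb-bs, a hemoglobin β chain, had 282 and 50 TPM in A/J, 2.11 and 0.801 TPM in BALB/cJ and 18.8 and 17.3 TPM in C57BL/6J Kupffer cells, against medians of 6.79 TPM in LSECs, 7.68 TPM in stellate cells and 1.39 TPM in hepatocytes. Its call was lost with strains weighted equally (1.22, 0.085), with limma on log2(TPM + 1) (1.18, 0.1) and without A/J Kupffer replicate 1 (0.85, edgeR adjusted p = 0.26). Of 15 tested immediate-early and dissociation stress genes, none were enriched and 1 low, with a median of −1.74. The low one was Dusp1, a phosphatase, at 41.9 TPM in Kupffer cells, against medians of 172 TPM in LSECs, 189 TPM in stellate cells and 66 TPM in hepatocytes, and its call was lost with limma on log2(TPM + 1).

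Compared within a strain, 1042 genes were enriched for C57BL/6J (9.92%), 989 for A/J (9.42%) and 1049 for BALB/cJ (9.99%). Of the 1026 enriched genes, 822 (80.1%) were enriched within each strain. These comparisons came from the fit of 12 groups, each a cell type in a strain, which used the libraries of all strains. They are therefore not separate analyses of each strain. A test of whether the difference of Kupffer cells from the mean of the 3 others varied by strain called 648 of all tested genes (6.17%) and 74 of the enriched ones (7.21%), a share near the background. None of the 5 markers was called, the largest strain difference being that of Marco (2.29, edgeR adjusted p = 0.21).

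For some of the called genes the Kupffer level itself differed. Cx3cr1, the fractalkine receptor, had 76.1 and 110.5 TPM in A/J, 98.8 and 88.8 TPM in BALB/cJ and 2.36 and 1.03 TPM in C57BL/6J Kupffer cells, and at most 36.8 TPM in a stellate library. The difference of Kupffer cells from the other cell types was 5.71 larger in BALB/cJ than in C57BL/6J (edgeR adjusted p = 0.022). That call was lost with stellate cells left out of the mean (6.58, adjusted p = 0.078), without C57BL/6J LSEC replicate 1 (0.062) and without C57BL/6J hepatocyte replicate 2 (0.1). Ppfia4, a liprin, had 0.097 and 0.022 TPM in A/J, 14.5 and 14.2 TPM in BALB/cJ and 18.1 and 17.3 TPM in C57BL/6J Kupffer cells (A/J minus BALB/cJ −6.53, edgeR adjusted p = 2.1e-05). Slfn9, of the Schlafen family, had 31.8 and 35.3 TPM in A/J, 3.82 and 4.32 TPM in BALB/cJ and 4.49 and 3.97 TPM in C57BL/6J Kupffer cells (A/J minus BALB/cJ 4.01, edgeR adjusted p = 0.00019). Lepr, the leptin receptor, had 14.8 and 20.9 TPM in A/J, 145 and 92.4 TPM in BALB/cJ and 57.3 and 85.4 TPM in C57BL/6J Kupffer cells, beside 15.5 to 51 TPM in LSECs. Its difference from the nearest cell type was 0.02 within A/J, 1.15 within C57BL/6J and 2.56 within BALB/cJ (A/J minus BALB/cJ −3.24 in the test of strains, edgeR adjusted p = 5.5e-06), and its enriched call was lost with limma on log2(TPM + 1).

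For others a neighbor differed between strains, alone or with Kupffer cells. Trim30d, of the TRIM family, had 24.9 and 30.7 TPM in A/J, 25.6 and 28.3 TPM in BALB/cJ and 28.1 and 22.6 TPM in C57BL/6J Kupffer cells. In LSECs it averaged 0.214 ± 0.19 TPM in A/J, 0.172 ± 0.058 TPM in BALB/cJ and 23.5 ± 1.2 TPM in C57BL/6J (SD, n = 4 each). The strain test gave 6.03 for A/J minus C57BL/6J (edgeR adjusted p = 1.5e-07), and the difference from the nearest cell type was 2.61 within A/J, 0.40 within C57BL/6J and 5.48 within BALB/cJ. Cxcl14, a chemokine, averaged 23.5 ± 1.9 TPM in C57BL/6J Kupffer cells (SD, n = 2) and 38.9 ± 7.5 TPM in C57BL/6J stellate cells (SD, n = 3), beside 61 ± 22 TPM in BALB/cJ Kupffer cells and 3.1 ± 1.2 TPM in BALB/cJ stellate cells (BALB/cJ minus C57BL/6J 4.32, edgeR adjusted p = 1.8e-05). Gbp2b, an interferon-induced GTPase, averaged 98.6 ± 26 TPM in C57BL/6J Kupffer cells (SD, n = 2) and 0.284 ± 0.33 TPM in C57BL/6J LSECs (SD, n = 4), beside 18.3 ± 6.7 TPM in BALB/cJ Kupffer cells and 22 ± 3.4 TPM in BALB/cJ LSECs (BALB/cJ minus C57BL/6J −4.70, edgeR adjusted p = 6e-05). Slc15a2, a peptide transporter, was uneven within groups, with 26.5 and 1.47 TPM in the C57BL/6J Kupffer libraries and 0.07 to 102 TPM in the C57BL/6J LSEC libraries. Its strain call (BALB/cJ minus C57BL/6J 7.21, adjusted p = 0.017) was lost without C57BL/6J Kupffer replicate 2 (edgeR adjusted p = 0.13).

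**Figure D5:**
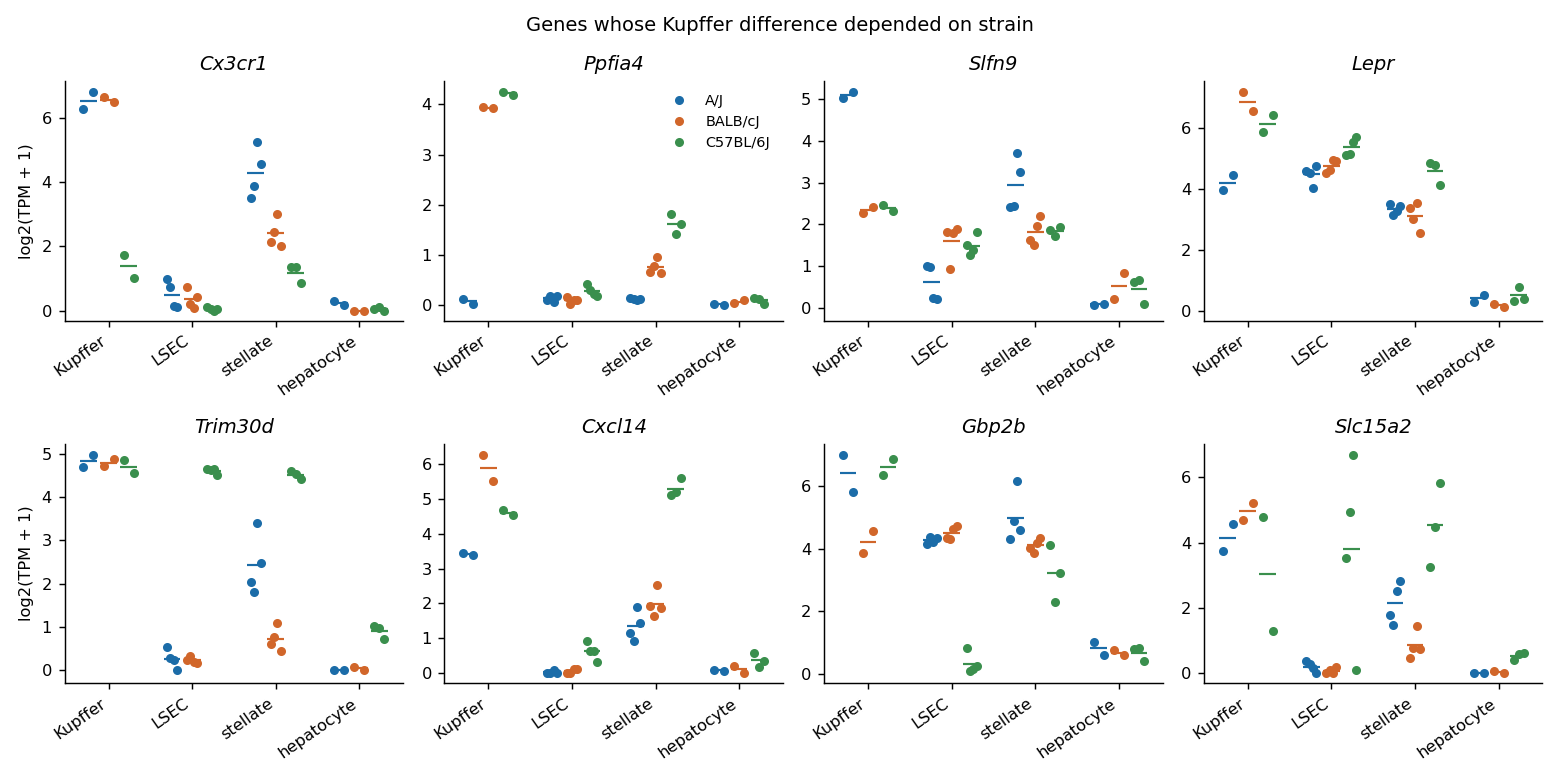
Levels of 8 genes whose difference between Kupffer cells and the other cell types depended on strain, as log2(TPM + 1) by cell type, with points for libraries colored by strain and lines for strain means. Cx3cr1, Ppfia4, Slfn9 and Lepr vary between strains in Kupffer cells, and Trim30d stands at Kupffer levels in C57BL/6J LSECs and stellate cells.

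Levels in other libraries are given beside these with no test. Bone marrow-derived macrophages (BMDMs) in PBS, 2 libraries per strain, are cultured macrophages that lack the liver niche. Of the enriched genes, 820 (79.9%) averaged over 8 TPM in BMDMs, as did 70.5% of all tested genes, and 67 (6.53%) averaged under 1 TPM. Clec4f, Timd4, Vsig4, C6, Cxcl13, Pcolce2, Kcna2 and Lepr were among the last. Spi1 had 286 to 459 TPM, Csf1r 709 to 1054 TPM and Lyz2 11742 to 25041 TPM in BMDMs. Nr1h3 had 5.29 to 16 TPM and Spic 0.448 to 6.49 TPM in BMDMs, against medians of 239.9 and 84.3 TPM in Kupffer cells.

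Over the enriched genes, the median level was 43.7 and 44.8 TPM in Kupffer cells of BALB/cJ and of C57BL/6J 2 h after LPS, a bacterial cell wall lipid. It was 54.3 TPM in A/J, 50.6 TPM in C57BL/6J and 53.4 TPM in BALB/cJ after 30 weeks of AMLN, a steatohepatitis diet. In Kupffer cells recruited in NSG hosts it was 54.7 TPM from BALB/cJ marrow and 53.1 TPM from C57BL/6J marrow. In the untreated Kupffer cells, on which these genes were chosen as high, it was 63.1 TPM in A/J, 61.2 TPM in C57BL/6J and 58.7 TPM in BALB/cJ. Single members moved more than the median. Cd163 had medians of 549 TPM with LPS, 194 TPM with AMLN and 182 TPM in NSG hosts, against 1171 TPM in untreated Kupffer cells. Spic had 800.1 TPM with LPS, against 84.3 TPM in untreated Kupffer cells. The LPS and NSG medians cover BALB/cJ and C57BL/6J only, while the AMLN and untreated medians also cover A/J. The AMLN mice were also older than the untreated mice, after 30 weeks of diet. The NSG hosts were conditioned with busulfan, and their livers were taken months after transplant. The LPS mice were fasted overnight, and whether the untreated mice here were fasted is not stated.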

How the data were processed

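RNA was made into poly(A)-selected libraries by the authors and aligned with STAR to the genome of each strain, and reads were moved to mm10 positions with MMARGE. The deposited raw counts per gene were made by the authors with HOMER over exons, without normalization. The deposited BMDM columns come in steps of 0.5, for a reason not stated, were handled as estimated counts and entered no test. The deposited TPM values were made by the authors with HOMER from the isoform with the most reads. The sources used here give neither the strand setting of the counts nor the versions of the tools. Of 20 deposited tables, 18 of CB6F1/J hybrid libraries were not used.

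Kupffer cells were compared with LSECs, stellate cells and hepatocytes in 1 edgeR 4.0.16 quasi-likelihood fit (R 4.3.3, TMM scaling, robust) of the counts of the 36 libraries, with cell type and strain as terms. Genes had to pass filterByExpr and average over 8 TPM in at least 1 cell type. P-values were adjusted by Benjamini-Hochberg over the 10504 genes tested, and calls needed an adjusted p under 0.05 and a log2 difference over 1. The smallest difference of a gene is the least of its 3 differences, given with the largest of its 3 adjusted p-values. Dependence on strain was tested by edgeR as the difference of Kupffer cells from the mean of the 3 other cell types, compared between strains in a fit of 12 groups.

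Alternatives were DESeq2 1.42.0, limma 3.58.1 on log2(TPM + 1), other scalings, filters, fold limits and covariates, and fits without single libraries or groups. Genes were named by rule: the markers, called members of identity, factor, C1q, Fc receptor, niche receptor and niche ligand lists, up to 4 enriched and any low members of the other lists, the 12 enriched genes with the largest smallest difference, the 12 with the highest level, 3 on each side of the fold limit, and up to 10 enriched genes with a strain difference. Uncalled members and the examples shown were picked after their values were seen. The members and lists were chosen with earlier results of these data known. Depth was 6377394 to 21445259 counts per library, so counting error bears mainly on low genes. The fits were tested on simulated data. Some members of the lists are counted but not reported by name here.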

Additional observations from a re-analysis of the deposited data

Results flagged for a closer look

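Of 48 sets of library values examined, 6 held a library that stood apart from the others of its group, where chance alone gives about 1 in 20. The sets are not independent, since genes of the same library are counted apart, so the count cannot be set against that rate. In C57BL/6J LSECs, replicate 1 had 28.4 TPM of Clec4f, 3.15 TPM of Timd4 and 24.6 TPM of Cd5l. The other 3 libraries of the group had 5.33 to 6.98, 0.648 to 0.907 and 4.07 to 7.01 TPM of the same genes. In BALB/cJ LSECs, replicate 4 had 0.234 TPM of Marco and the other 3 libraries had 0. Over the Kupffer libraries, the highest sum of T and NK cell markers was 31.7 TPM, in C57BL/6J, beside a median of 6.71 TPM. The highest sum of erythroid and platelet markers was 797 TPM, in A/J, beside a median of 162 TPM.

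The edgeR test of strains called 74 Kupffer-enriched genes, and the 10 named for the largest strain difference are listed here. The value tested was the difference of Kupffer cells from the mean of the other cell types. The largest strain difference was 7.21 for Slc15a2, 6.53 for Ppfia4, 6.03 for Trim30d, 5.71 for Cx3cr1, 4.70 for Gbp2b, 4.32 for Cxcl14 and 4.01 for Slfn9 on the log2 scale. The others were hemoglobin genes, at 5.50 for Hbb-b1, 5.49 for Hbb-bs and 5.46 for Hba-a2. Outside these 10, named enriched genes with a strain call included Lepr, Irf5 and Pf4. The strain call of Irf5 was lost with DESeq2 (2.39, adjusted p = 0.066) and whichever Kupffer library was left out (2.31 to 2.51). That of Pf4 was lost without BALB/cJ Kupffer replicate 1 (2.28), C57BL/6J Kupffer replicate 2 (2.41) or BALB/cJ hepatocyte replicate 2 (2.42). Hbb-b1 and Hbb-bs had near-equal levels, such as 51 and 50 TPM in A/J Kupffer replicate 2 and 19.1 and 18.8 TPM in C57BL/6J Kupffer replicate 1. Whether both count the same reads was not tested, so they do not stand as separate results. The strain call of Hbb-bs was lost without A/J Kupffer replicate 1 (3.62, edgeR adjusted p = 0.14), BALB/cJ Kupffer replicate 1 (6.38, 0.079) or BALB/cJ Kupffer replicate 2 (5.00, 0.11). That of Hbb-b1 was lost without the same 3 libraries (0.14, 0.077 and 0.11), and that of Hba-a2 was lost without any of the 6 Kupffer libraries but A/J replicate 2 and without several of the others (0.05 to 0.21).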

How the results depend on the processing

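Of 1026 Kupffer-enriched genes, 1025 were called without the filter on low counts, among 1611 then called, 862 with limma on log2(TPM + 1), among 940, and 1020 with a replicate block, among 1056. Over 43 pairs of libraries with the same number, deviations from the group means correlated at −0.239 to 0.536 (median 0.005, 9 above 0.1). Pairs with a Kupffer library ranged from −0.239 to 0.225. The highest values joined an LSEC and a stellate library, such as 0.536 for BALB/cJ replicate 2 and 0.418 for A/J replicate 4. The lowest value of such a pair was −0.009, for C57BL/6J replicate 1. LSEC and stellate libraries of a strain with different numbers correlated at −0.494 to 0.265. Whether LSEC and stellate libraries with the same number shared a liver was not tested. With the replicate block the Kupffer-low genes numbered 1251 and the strain-dependent genes 661. DESeq2 gave 1031 enriched, 1170 low and 832 strain-dependent genes.

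Without the filter on low counts, Kupffer cells were higher and lower for 3097 and 4102 genes against LSECs, 2422 and 4018 against stellate cells and 4868 and 4778 against hepatocytes. Without a fold limit the counts were 4035 and 4175 against LSECs, 3824 and 3905 against stellate cells, 2090 enriched, 1781 low and 1153 strain-dependent. With a log2 limit of 2 they were 1014 higher than in LSECs, 681 and 1516 against stellate cells, 1845 and 1991 against hepatocytes, 554 enriched, 601 low and 247 strain-dependent. With limma they were 4947 and 1690 against hepatocytes and 480 low, and against LSECs and stellate cells alone 1927 were low. Itgb3 reversed with limma (0.034). With 1 library left out, the counts were 1764 to 1850 and 2443 to 2491 against LSECs, 1496 to 1597 and 2190 to 2348 against stellate cells, 2710 to 3044 and 3119 to 3488 against hepatocytes, 1007 to 1053 enriched, 1004 to 1163 low and 528 to 700 strain-dependent. The cause of these shifts was not tested, beyond the looser or stricter limits themselves.

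Of 138 called named genes, 49 lost the call in at least 1 alternative, 36 with the log2 limit of 2, 24 with limma, 6 without strain as a covariate and 14 with 1 library left out. Of 20 named genes with a strain-dependent difference, 14 lost that call in at least 1 alternative.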
